A study of Mus musculus with 14 samples.

Results

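The transcriptional response of Ezh2 knockout macrophages to hepatoma-conditioned medium was measured in 6 of the 14 RNA sequencing libraries of the study. The cells were macrophages differentiated from mouse bone marrow with medium of L929 fibroblasts, a source of macrophage colony-stimulating factor, together with fetal bovine and horse serum. Their donors were Ezh2fl/fl;LysM-Cre+/- mice, whose lysozyme M-driven Cre removes floxed Ezh2 sequence in myeloid cells (KO). Over 24 h, 3 KO cultures were kept in conditioned medium (CM) of the mouse hepatoma line Hepa1-6 and 3 in DMEM complete medium (control). All 6 cultures therefore share the deletion, the Cre and the L929 factors. The other 8 libraries are from littermate controls (WT), 4 in each medium. They enter here through the filter on low counts, the scaling of library totals and the shared estimate of variation. They also serve in the comparison of Ezh2 exons and in the test of genotype by medium. No medium from a cell type other than Hepa1-6 was included, so the comparison does not separate tumor products from those of any cultured cell. Whether the libraries of a group came from separate animals is not stated in the labels, and p-values measure only the spread between these libraries, which may be technical.

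Macrophages in and around tumors take up secreted proteins, lipids and metabolites of the tumor cells and change their transcription accordingly. Cytokines that act through Stat6 and Stat3, lactate and colony-stimulating factors are known to drive wound-healing programs that include arginase, lectin receptors and angiogenic factors, while interferon and NF-kB signals drive the inflammatory ones. Ezh2 is the catalytic subunit of Polycomb repressive complex 2, which methylates histone H3 and keeps genes silent.

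Counts were exon counts summed per gene, between 41792602 and 54362151 in the KO control libraries and between 40249866 and 61539097 in the KO CM libraries. Of 25239 gene symbols, 17021 had a count in KO and 13311 passed the filter on low counts. Levels are CPM, the unit of counts relative to the scaled library total, and changes are log2 fold changes, CM minus control, ± SE. A gene is called when the adjusted p of edgeR's quasi-likelihood test is below 0.05. The deletion itself was visible in 2 neighbouring Ezh2 exons, chr6:47531985-47532065 and chr6:47531741-47531825 on the minus strand (GRCm38), which held 0 to 11 counts in the 6 KO libraries and 41 to 92 in the WT libraries. In KO their mean level was 9.43% and 11.1% of that in WT, against 61.9 to 117% for the other 12 matched exons. Ezh2 transcripts without these exons were still made: the gene's level was 18.7, 18.8 and 18.2 CPM in control and 27.8, 24.6 and 28.9 CPM in CM, a rise of 0.55 ± 0.11 (adjusted p = 0.000686). That rise was not called when only the most-counted exon of each gene was used (0.51, adjusted p = 0.0561).

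Promoter sequences are shown first for the chaperones of the endoplasmic reticulum (ER) and the genes of mitosis, since most members of both lists rose and a motif searched in each stood in a larger share of their promoters than of all promoters. The stretches come from RefSeq (GRCm38.p6), which had a promoter, 250 bases before to 50 after the start, for 23 of the 29 tested ER members and 34 of the 40 tested mitosis members. The ER stress element is known as a CCAAT box followed, after 9 bases of any kind, by CCACG. Searched on both strands, it stood in 9 of the 23 ER promoters (39.1%) against 35 of 27025 promoters in the table (0.13%) and 19 of the 10448 promoters of tested genes (0.182%). Capitals mark the whole element, on either strand, in the next sequences. They are Hspa5 (chr2:34771970-34772069, plus strand), Hsp90b1 (chr10:86705523-86705666, minus strand, with 2 elements), Pdia6 (chr12:17266469-17266568, plus strand), Canx (chr11:50325729-50325828, minus strand), Dnajc3 (chr14:118937812-118937911, plus strand) and Derl3 (chr10:75893232-75893331, plus strand). All lie upstream of the start. Derl3 is shown because it was the ER member that fell in CM while holding the same element as the members that rose.
Hspa5: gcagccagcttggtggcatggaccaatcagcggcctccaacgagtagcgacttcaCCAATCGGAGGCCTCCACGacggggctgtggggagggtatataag
Hsp90b1: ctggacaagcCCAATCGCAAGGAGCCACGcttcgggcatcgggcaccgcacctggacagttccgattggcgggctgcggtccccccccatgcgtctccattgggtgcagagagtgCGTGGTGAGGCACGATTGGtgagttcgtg
Pdia6: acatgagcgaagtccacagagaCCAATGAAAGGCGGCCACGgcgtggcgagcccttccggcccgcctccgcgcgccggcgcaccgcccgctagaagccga
Canx: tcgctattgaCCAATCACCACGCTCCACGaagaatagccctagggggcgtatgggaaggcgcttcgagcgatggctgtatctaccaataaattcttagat
Dnajc3: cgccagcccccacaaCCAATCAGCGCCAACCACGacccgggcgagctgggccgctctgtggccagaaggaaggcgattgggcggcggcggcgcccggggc
Derl3: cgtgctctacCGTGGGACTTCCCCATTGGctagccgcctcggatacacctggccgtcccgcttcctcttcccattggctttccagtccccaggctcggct

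Mitosis genes are known for a CCAAT box together with the cell cycle homology element, searched here as TTTGAA or TTCGAA on both strands. At least 1 such hexamer stood in 28 of 34 mitosis promoters (82.4%), against 19.4% of all promoters and 14.3% of those of tested genes. Both motifs stood together in 22 of 34 (64.7%), against 2082 of 27025 (7.7%). Of the 39 hexamer matches in this list, 28 lay between 60 bases before and 50 after the start. Capitals in the next sequences mark CCAAT and the hexamer on either strand, in the 120 bases before the start of Cdc20 (chr4:118437344-118437463, minus strand), Kif11 (chr19:37376262-37376381, plus strand), Ube2c (chr2:164769809-164769928, plus strand) and Cdk1 (chr10:69352913-69353032, minus strand). A match is a description of letters and not evidence that a factor was bound.
Cdc20: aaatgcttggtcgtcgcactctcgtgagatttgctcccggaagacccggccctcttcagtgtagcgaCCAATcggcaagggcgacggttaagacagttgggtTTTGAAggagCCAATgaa
Kif11: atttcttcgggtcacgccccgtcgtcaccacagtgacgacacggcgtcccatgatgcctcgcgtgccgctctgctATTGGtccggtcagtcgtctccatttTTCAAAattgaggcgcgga
Ube2c: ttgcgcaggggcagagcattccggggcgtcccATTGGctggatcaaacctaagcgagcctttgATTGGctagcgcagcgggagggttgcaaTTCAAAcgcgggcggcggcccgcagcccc
Cdk1: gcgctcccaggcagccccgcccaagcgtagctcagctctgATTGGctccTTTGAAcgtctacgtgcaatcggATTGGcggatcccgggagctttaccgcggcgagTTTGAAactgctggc

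Between the media, 5077 of the 13311 tested genes changed in KO macrophages (38.1%), of which 2659 were higher in CM (20%) and 2418 lower (18.2%). Most changes were small: 2751 of the called genes (54.2%) moved by less than 1.5-fold, and the median size was 0.54 on the log2 scale. At 2-fold or more, 662 genes were higher (4.97%) and 525 lower (3.94%). At 4-fold these were 215 and 159. In 7262 genes (54.6%) the control and CM libraries did not overlap, and 4985 of the called genes were among them. With library totals alone in place of the scaled totals, the median of all genes moved from -0.01 to -0.12 and the split of calls from 52.4% higher to 34.9% higher (1941 higher, 3623 lower), so small shifts of whole gene groups have to be read against that displacement. On the first principal component of the 6 libraries, which held 72.5% of the variance, the control libraries lay at 41.5 to 43.1 and the CM libraries at -42.2 to -43.

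**Figure D1:**
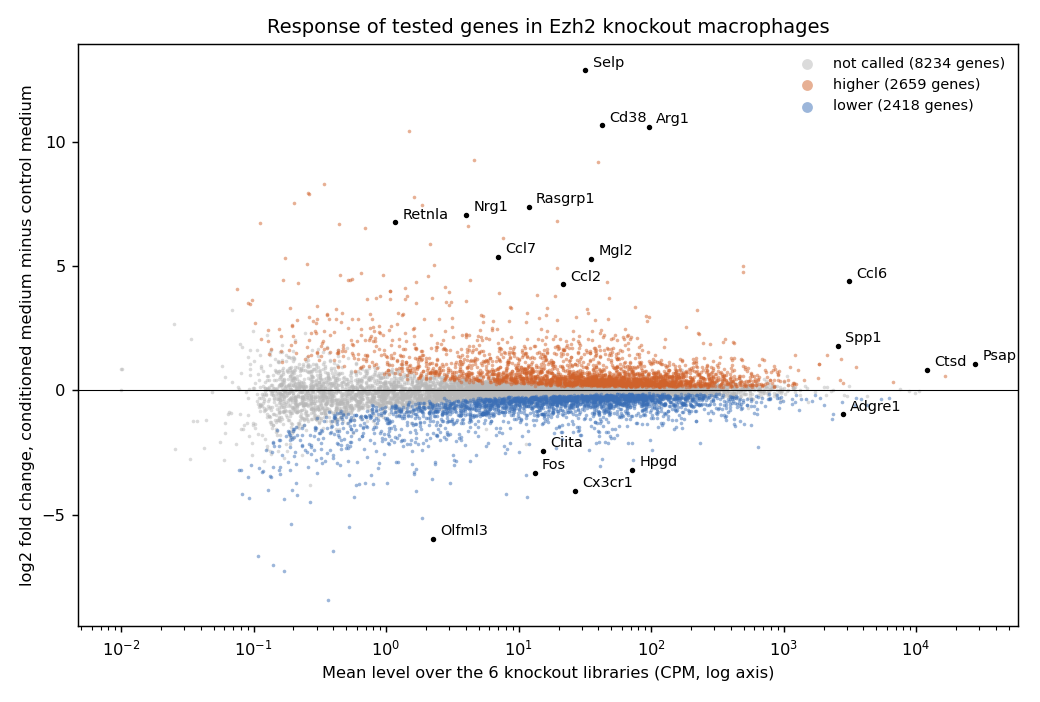
Each point is a tested gene, with its mean CPM over the 6 KO libraries (log axis) and its log2 fold change, CM minus control. Orange points are the 2659 genes called higher, blue points the 2418 called lower grey points those not called and black points genes labelled by name. Selp, Cd38 and Arg1 stand at the top, and Psap, Ctsd and Ccl6 are the labelled rising genes at the far right.

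The clearest part of the response was a set of genes with almost no counts in control medium. The rule for a gene switched on was 0.5 CPM or less in each control library and 4 CPM or more in each CM library. The reverse defined a gene switched off. With predicted, clone, microRNA, immunoglobulin and T cell receptor symbols left out, 10 genes were switched on and 1 was switched off. Selp, the adhesion receptor P-selectin, had 1 count over the 3 control libraries and 9398 over the CM libraries, with levels of 59.8, 66.3 and 65.1 CPM in CM. The ratio was 10000, with a 95% counting interval of 1800 to 395000 that covers counting error only. The gene was thus near absence in every control library and well expressed in every CM library.

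Arg1, the arginase that turns arginine into ornithine, was at 0.291, 0.0526 and 0 CPM in control and 194, 181.5 and 198.4 CPM in CM (10.60 ± 0.34, adjusted p = 3.62e-12). Cd38, a surface enzyme that consumes NAD, went from 0.0727, 0.0526 and 0.0226 CPM to 80.3, 83.3 and 92.9 CPM (10.65 ± 0.34). The Ras activator Rasgrp1 rose from 0.0909 to 0.181 CPM to between 20.8 and 27.4 CPM (7.37 ± 0.28). Nrg1, a ligand of the ErbB receptors, rose by 7.07 ± 0.53, and the kinase gene Camkk1 by 6.59 ± 0.56. Socs2, a feedback inhibitor of cytokine receptors, rose by 6.14 ± 0.26, the monocyte-attracting chemokine Ccl7 by 5.38 ± 0.37 and Flywch2 by 3.95 ± 0.27. The secreted glycoprotein gene Olfml3 went the other way, from 4.57, 4.44 and 4.30 CPM to 0.0761, 0.0851 and 0.0498 CPM (-5.97 ± 0.28).

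**Figure D2:**
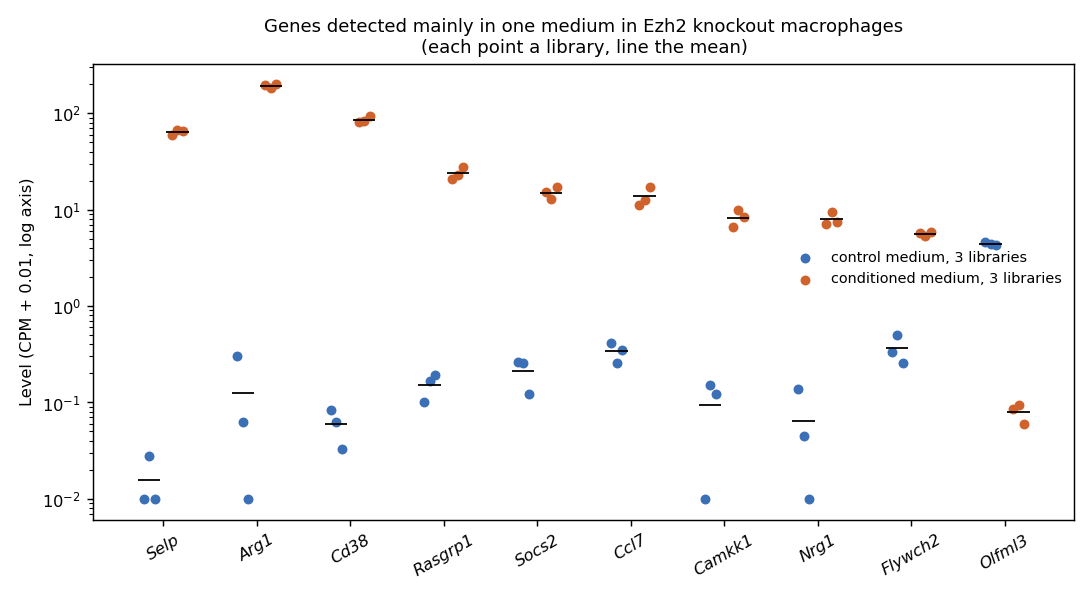
Points are single KO libraries and lines are means for 10 genes, on a log axis of CPM + 0.01. The CM libraries (orange) lie above 4 CPM and the control libraries (blue) at or below 0.5 CPM in the 9 genes from Selp to Flywch2, and the order is reversed in Olfml3.

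Among called genes with at least 1 CPM in all 6 libraries, a mean of 4 CPM or more and groups that did not overlap, the largest increases were in Mgl2 and Ednrb. Mgl2, a galactose-binding lectin of alternatively activated macrophages, was at 1.07, 2.49 and 1.72 CPM in control and 74.9, 68.3 and 64.2 CPM in CM (5.29 ± 0.41). The endothelin receptor gene Ednrb was at 30.2, 29.8 and 28.2 CPM and then at 930.1, 951.8 and 987 CPM (5.02 ± 0.08). The guanine deaminase gene Gda moved almost in step, from 34.2 to 36.2 CPM to between 936.7 and 972.1 CPM (4.77 ± 0.12). Behind them came Ccl6, Ccr1, Ccl2, the haptoglobin gene Hp (3.81 ± 0.20), the receptor gene Treml2 (3.73 ± 0.10), the TNF family ligand Tnfsf14 (3.30 ± 0.10) and the coagulation factor F10 (3.27 ± 0.11). Bcl2a1b and Bcl2a1a rose by 3.36 ± 0.20 and 3.35 ± 0.46; they are near-identical copies of a survival gene, and the counting may have split reads between them.

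By the same rule the largest decreases began with Cx3cr1, the fractalkine receptor, at 55.1, 48.8 and 46 CPM in control and 3.09, 3.10 and 2.92 CPM in CM (-4.04 ± 0.17). Gpr34, a lysophosphatidylserine receptor of microglia and macrophages, fell by 3.41 ± 0.16 on the log2 scale, and the AP-1 subunit gene Fos fell by 3.32 ± 0.17. Hpgd, which breaks down prostaglandins, was at 143.6, 137.6 and 109.6 CPM and then at 16.8, 15.7 and 10.5 CPM (-3.19 ± 0.18). The corepressor gene Tle1 went from 73.1 to 74.8 CPM to between 8.53 and 9.74 CPM (-3.03 ± 0.11). Adgre4, an adhesion receptor of macrophages, changed by -2.78 ± 0.15, Zfyve28 by -2.74 ± 0.16, Adam22 by -2.52 ± 0.13 and Ctla2a by -2.46 ± 0.18. Itgal, the alpha chain of the integrin LFA-1, went from 153.4 to 183.1 CPM down to 29.7 to 34 CPM (-2.40 ± 0.13). Its partner chain Itgb2 rose slightly (0.23 ± 0.07).

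The largest gains in CPM were in lysosomal and secreted products. Psap, the precursor of the saposins that activate lysosomal lipid breakdown, went from 17879, 18357 and 17978 CPM to 38051, 36547 and 39016 CPM (1.07 ± 0.04). The cathepsins Ctsd (0.84 ± 0.04), Ctsb (0.58 ± 0.06) and Ctsl (1.28 ± 0.05), the lysosomal membrane protein gene Lamp1 (0.93 ± 0.06), osteopontin Spp1 and the integrin Itgam were also among the 8 largest gains. The losses were led by Adgre1, which encodes the macrophage antigen F4/80, from 3695, 3649 and 3717 CPM to 1808, 1870 and 2022 CPM (-0.96 ± 0.06). Next came the phospholipid transfer protein gene Pltp (-1.14 ± 0.07), the receptor of macrophage colony-stimulating factor Csf1r (-0.57 ± 0.07), Apoe (-0.95 ± 0.11), Itm2b (-0.58 ± 0.07) and the pore-forming protein gene Mpeg1 (-0.33 ± 0.06). Ctss (-0.30 ± 0.10) lost its call when any 1 of 5 of the 6 KO libraries was left out. H2-L (-0.36 ± 0.07) shares reads with other class I genes and is uncertain.

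Gene lists of known pathways and functions are described next by their counts, beside the shares of all tested genes called higher (20%) or lower (18.2%) and a median over all of -0.01. With library totals alone the counts of most lists moved somewhat; they follow in parentheses wherever either count moved by over 1.5 times, and for some other lists.

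**Figure D3:**
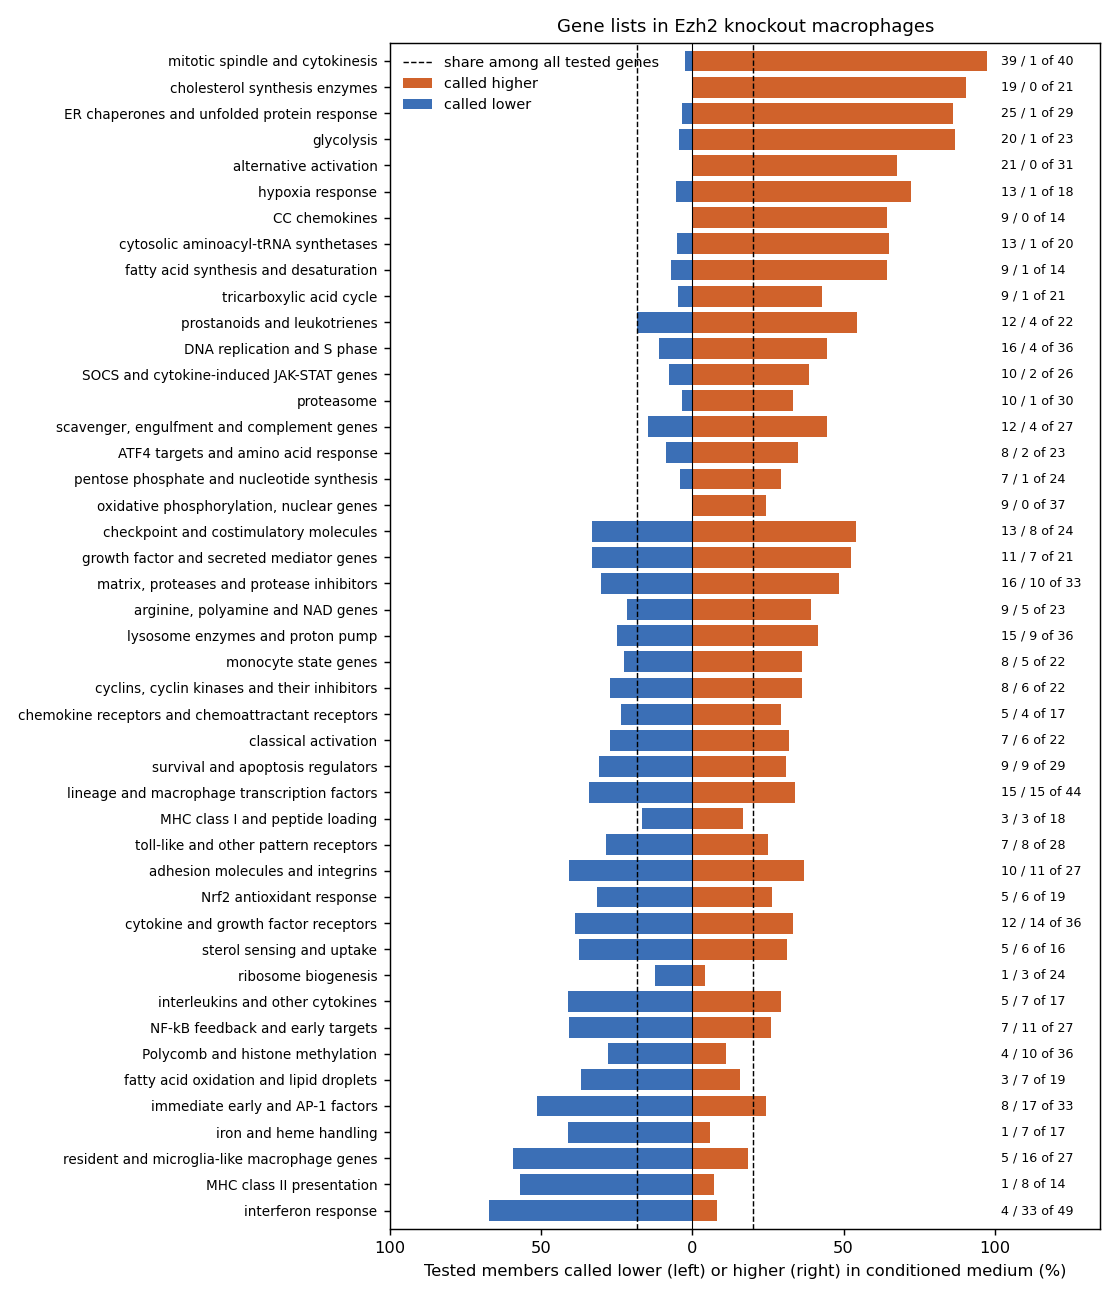
Bars give the percentage of tested members called higher (orange, right) or lower (blue, left) in each list with 14 or more tested members other than the cell type markers, and dashed lines the shares among all tested genes. Numbers at the right are members higher, lower and tested. Mitosis, cholesterol synthesis, ER chaperones and glycolysis stand at the top, and interferon response, MHC class II and resident macrophage genes at the bottom.

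Cholesterol is made from acetyl-CoA by enzymes that cells turn on together when sterols in the ER membrane run low. Of 21 tested enzymes of the pathway, 19 rose and 0 fell, with a median of 1.51. The isomerase gene Idi1 went from 9.48, 8.03 and 7.63 CPM to 43.2, 44 and 43.4 CPM (2.37 ± 0.09), with no overlap between the groups. Squalene epoxidase Sqle rose by 2.17 ± 0.10 and Cyp51 by 2.04 ± 0.10. Early and late steps of the pathway moved together, and the members not called were Tm7sf2 (0.47 ± 0.20) and Ggps1 (0.07 ± 0.06), which makes the isoprenoid of a side branch. Hmgcs1, the synthase at the entry, rose by 1.41 ± 0.08 and was the only 1 of 16 matched promoters of this list with TCACNCCAC, the letters of a sterol regulatory element (1.22% of all promoters and 1.03% of those of tested genes). Its 100 bases at chr13:119690204-119690303 (plus strand) are shown with the element in capitals.
Hmgcs1: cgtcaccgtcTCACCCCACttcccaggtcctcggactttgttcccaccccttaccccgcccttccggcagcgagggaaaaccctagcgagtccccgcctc

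Several sterol sensing genes moved with synthesis, and efflux genes moved the other way. The sensor Insig1 went from 22.2 to 25.6 CPM to between 107.5 and 114 CPM (2.23 ± 0.06). Mylip, a ubiquitin ligase that the oxysterol receptors induce, went from 73.4, 71.3 and 71.7 CPM to 16.9, 17.2 and 18 CPM (-2.06 ± 0.07). The sterol-responsive transcription factor Srebf2 rose (1.24 ± 0.06), as did the sterol carrier Stard4 (1.83 ± 0.08). The sterol efflux genes Abca1 (-0.70 ± 0.06), Apoe and Abcg1 (-0.17 ± 0.05) and the oxysterol receptor Nr1h3 (-1.11 ± 0.13) fell. In all, 5 of 16 members of the sensing and uptake list rose and 6 fell. Fatty acid synthesis shared the direction of cholesterol synthesis: 9 of 14 members rose and 1 fell, led by the desaturases Scd2, from 9.17 to 9.71 CPM to between 61.5 and 71.8 CPM (2.81 ± 0.11), and Scd1 (2.73 ± 0.17), with Fasn at 0.93 ± 0.14. Of 19 genes of fatty acid oxidation and lipid droplets 3 rose and 7 fell, among them the lipase inhibitor Angptl4 (-4.29 ± 0.22), the carnitine transferase Cpt1a (-0.88 ± 0.05), the droplet coat gene Plin2 (-0.63 ± 0.06) and Pparg (-0.69 ± 0.10).

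Glycolysis had 20 of 23 members higher, 1 lower and a median of 0.74 (16 and 1 with library totals alone). Its liver-type phosphofructokinase Pfkl went from 55.6, 58.8 and 58.7 CPM to 157.8, 154.2 and 152.4 CPM (1.42 ± 0.08). Lactate dehydrogenase Ldha went from 341.5 to 352 CPM to between 654.4 and 696.9 CPM (0.96 ± 0.06), and the lactate exporter Slc16a3 rose by 1.44 ± 0.10. The glucose transporter Slc2a1 rose by 1.06 ± 0.12, and Pfkfb4 was the member that fell (-0.40). Gapdh, at 53.7 to 56.1 CPM in control and 94.8 to 141.2 CPM in CM, has many near-identical pseudogenes and is uncertain. Leaving out 1 KO library at a time gave 15 to 18 higher.

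Among 18 genes of the hypoxia response 13 rose and 1 fell, with a median of 0.60. Bhlhe40, a transcriptional repressor, went from 6.06, 6.52 and 6 CPM to 47.4, 46.5 and 50.6 CPM (2.96 ± 0.08). Both oxygen-regulated subunits rose at the level of RNA, Epas1 by 2.48 ± 0.15 and Hif1a by 1.18 ± 0.08. Vegfa, the angiogenic growth factor, was at 53.4 to 54.2 CPM in control and 87 to 94.2 CPM in CM (0.75 ± 0.09). The letters ACGTG, the core of the hypoxia element, stood in 8 of 12 hypoxia promoters and 12 of 23 glycolysis promoters, against 19.7% of all promoters, 25.7% of those of tested genes and 39.1% of those of the ER list. The tricarboxylic acid cycle had 9 of 21 members higher and 1 lower (6 and 1 with library totals alone), among them citrate synthase Cs (0.53 ± 0.07) and, with the largest rise, the itaconate enzyme Acod1 (1.24 ± 0.21). The pentose phosphate and nucleotide list had 7 of 24 higher and 1 lower (5 and 3 with library totals alone). Of 37 nuclear genes of oxidative phosphorylation 9 rose and 0 fell by the scaled totals, but with library totals alone 5 rose and 4 fell, so no common direction held under both.

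The ER chaperone and unfolded protein response list, whose proteins fold and export secretory cargo, had 25 of 29 members higher, 1 lower and a median of 0.64. These were moderate shifts with little spread. The glucose-regulated chaperone Hspa5 went from 707.9, 710 and 697.8 CPM to 1093, 1078 and 1125 CPM (0.64 ± 0.05), and Hsp90b1 from 759.6, 743.6 and 777.6 CPM to 1456, 1426 and 1483 CPM (0.94 ± 0.06). The disulfide isomerases Pdia4 (1.05 ± 0.06) and Pdia6 (0.90 ± 0.05), Hyou1 (0.80 ± 0.06), Dnajc3 (0.71 ± 0.05), Xbp1 (0.71 ± 0.10) and the sensor kinase Ern1 (0.68 ± 0.10) rose too. Of the 9 members with the ER stress element, 8 were called higher and Derl3 lower. Derl3 was at 1.47, 1.44 and 0.679 CPM in control and 0.254, 0.553 and 0.398 CPM in CM (-1.57 ± 0.48, adjusted p = 0.0181), a low level at which single libraries weigh heavily. Of 23 genes of the ATF4 and amino acid response 8 rose and 2 fell: Nupr1 (2.05 ± 0.12), Slc7a5 (2.15 ± 0.29) and Atf5 (1.48 ± 0.07) rose, and Atf3 (-0.89 ± 0.07) fell. Cytosolic tRNA synthetases had 13 of 20 higher and 1 lower (10 and 2 with library totals alone), with Wars apart from the rest at 1.47 ± 0.06.

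Mitosis genes moved together more than any other list described here: 39 of 40 rose, 35 of them at 2-fold or more, with a median of 1.59. The proliferation antigen Mki67 went from 39.3, 33.3 and 39.5 CPM to 133, 125.6 and 136.3 CPM (1.82 ± 0.10), and topoisomerase Top2a from 60.1, 51 and 59.9 CPM to 179.4, 184.3 and 213.7 CPM (1.76 ± 0.11). Hmmr (1.90 ± 0.12), the kinesins Kif11 (1.58 ± 0.10) and Kif20a (1.56 ± 0.11), Cdc20 (1.63 ± 0.12), Plk1 (1.76 ± 0.15) and cyclin Ccnb2 (1.80 ± 0.16) rose by similar amounts. The exception was the securin gene Pttg1, at 30.9, 35.2 and 32.4 CPM in control and 28.4, 25.7 and 24.9 CPM in CM (-0.32 ± 0.08, adjusted p = 0.00364). Genes of DNA replication and S phase moved far less: 16 of 36 rose and 4 fell (2 to 4 without 1 KO library), with a median of 0.27, and the replicative helicase member Mcm6 fell (-0.49 ± 0.07) while Rrm1 rose (0.72 ± 0.07). Among cyclins and inhibitors 8 of 22 rose and 6 fell (5 and 7 with library totals alone). The cyclin Ccnd1 fell by 1.61 ± 0.16 on the log2 scale while Ccnd2 rose by 1.03 ± 0.12, and the inhibitors Cdkn1c (-1.76 ± 0.23) and Cdkn2b (-1.05) fell while Cdkn2d rose. Ribosome biogenesis, 24 genes, had 1 higher and 3 lower (0 and 6 with library totals alone, and 1 to 3 lower without 1 KO library). In bulk RNA, more cells in a state and more RNA of that state per cell cannot be told apart.

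**Figure D4:**
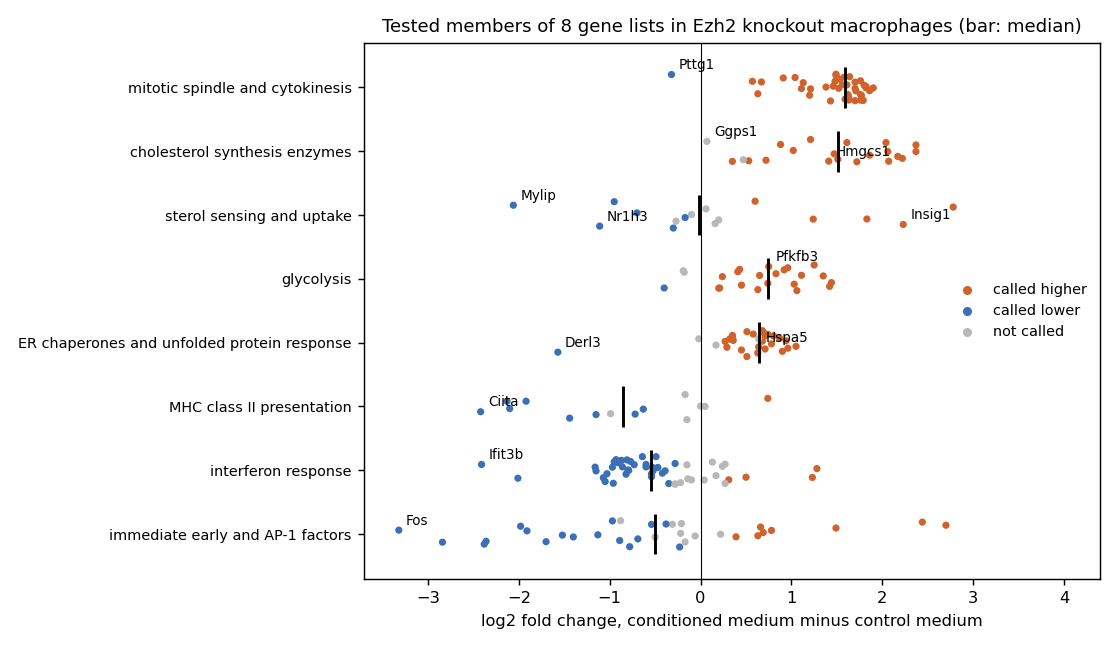
Points are the tested members of 8 lists by log2 fold change, CM minus control, coloured by call, and black bars are medians. Mitosis members except Pttg1 lie to the right of 0, with a median of 1.59. ER members lie around 0.64 with Derl3 apart, and interferon members lie around -0.54.

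Genes of alternative activation, the state that interleukin-4 induces, were higher in CM in 21 of 31 tested members and lower in 0, with a median of 1.13 (19 and 1 with library totals alone). The lectin receptor Clec10a went from 52.9, 55.9 and 51.7 CPM to 312.7, 306.7 and 311 CPM (2.54 ± 0.06) and the interleukin-4 receptor chain Il4ra from 137, 147.8 and 146.6 CPM to 552.6, 535.5 and 573.6 CPM (1.95 ± 0.06). The mannose receptor Mrc1 went from 403.7 to 434.5 CPM to between 946.7 and 1059 CPM (1.24 ± 0.11). In each of these the groups were apart by more than the spread within either. Low-level members changed by large ratios: Retnla had 3 counts in control and 356 in CM, a ratio of 126 (95% counting interval 42.9 to 615), Cd209a 2 and 74, a ratio of 39.4 (10.5 to 331), and Ccl17 0 and 79, at least 28-fold higher. The pattern did not extend to every member. Chil3 stood at 0.362 to 0.655 CPM in control and 0.254 to 0.383 CPM in CM (-0.69 ± 0.46), Il10 at 3.12 to 3.49 and 2.15 to 3.93 CPM (-0.09 ± 0.22), and Cd163 at 36.4 to 37.4 and 37.7 to 46.3 CPM (0.19 ± 0.08), none of them called.

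Classical activation genes had no common direction, with 7 of 22 higher and 6 lower. Cd38 and the feedback inhibitor Socs3 (3.05 ± 0.20) rose. Tnf fell from 5.33, 5.23 and 3.62 CPM to 2.31, 2.32 and 1.66 CPM (-1.19 ± 0.18), and the interferon-induced chemokine Cxcl10 from 28.8 to 36.4 CPM down to 8.44 to 12.4 CPM (-1.69 ± 0.23). Il1b, at 2.60 to 3.07 CPM and 1.09 to 2.71 CPM (-0.74 ± 0.43), and Il6, at 0 to 0.127 and 0.127 to 0.332 CPM, were not called. Nos2, the inducible nitric oxide synthase, stayed below the filter, at 0.228 CPM or less in control and 0 in all CM libraries.

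CC chemokines, ligands that draw monocytes and lymphocytes, had 9 of 14 higher and 0 lower, with a median of 1.36. Ccl6 was the most abundant of the risers in CM, at 285.2, 274.1 and 298.8 CPM in control and 5692, 6529 and 5631 CPM in CM (4.38 ± 0.13). Ccl2, the main ligand of Ccr2, went from 1.78, 2.37 and 2.22 CPM to 40.1, 37 and 45.7 CPM (4.27 ± 0.16), and its relatives Ccl12 (3.05 ± 0.19) and Ccl8 (4.42 ± 0.37) rose as well. Ccl9 went from 639.6 to 673.3 CPM to between 1672 and 1829 CPM (1.42 ± 0.06). CXC ligands split, with 3 of 11 higher and 4 lower: the membrane-bound Cxcl16 fell from 207.1 to 228.7 CPM to between 70.1 and 78 CPM (-1.56 ± 0.08), and the platelet factor genes Pf4 (1.92 ± 0.17) and Ppbp (3.66 ± 0.33) rose. Receptors split too, with 5 of 17 higher and 4 lower. Ccr1 went from 3.86, 4.4 and 5 CPM to 79.6, 87.6 and 99.6 CPM (4.34 ± 0.16), Ccr2 rose by 1.62 ± 0.14, while Cx3cr1, Cxcr4 (-1.32 ± 0.11), Ccr3 (-1.67 ± 0.18) and Cxcr3 (-1.30 ± 0.14) fell.

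Among 17 interleukins and other cytokines 5 rose and 7 fell. Spp1, the secreted phosphoprotein of matrix and tumor-associated macrophages, went from 1191, 1098 and 1168 CPM to 4123, 4030 and 3866 CPM (1.80 ± 0.08), and Osm rose by 1.20 ± 0.16. Tgfb3 had 79 counts in control and 3 in CM, a ratio of 24.7 (95% counting interval 8.16 to 123), and Il16 fell (-0.66 ± 0.08). Of 36 cytokine and growth factor receptors 12 rose and 14 fell (9 and 19 with library totals alone). The receptor pair for transforming growth factor beta parted: Tgfbr1 went from 169, 161.9 and 167.8 CPM to 60.7, 60.4 and 58.3 CPM (-1.48 ± 0.06) and Tgfbr2 from 152.3, 157.7 and 152.7 CPM to 269.6, 256.5 and 266.4 CPM (0.78 ± 0.07). Il10ra (-0.82 ± 0.07) and Ifngr1 (-0.55 ± 0.05) fell. Csf2rb, the shared beta chain of the granulocyte-macrophage factor receptor, rose (0.71 ± 0.05).

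The list of Socs genes and cytokine-induced genes of JAK and STAT signalling had 10 of 26 members higher and 2 lower (8 and 6 with library totals alone). Cish was at 0.4, 0.438 and 0.611 CPM in control and 5.50, 5.25 and 6.29 CPM in CM (3.57 ± 0.20), and the kinase gene Pim1 went from 28.5 to 30.4 CPM to between 120.9 and 136.6 CPM (2.10 ± 0.11). Together with Socs2 and Socs3 these are textbook targets of STAT factors. At the level of RNA, Stat3 rose by 0.58 ± 0.07, and Stat6 was not called (-0.09). Whether any STAT factor acted on these genes was not tested.

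Of 21 genes for growth factors and secreted mediators 11 rose and 7 fell. The platelet-derived growth factor genes diverged, Pdgfb falling from 66.8, 69.7 and 73.7 CPM to 20.4, 20.8 and 24.7 CPM (-1.67 ± 0.07) and Pdgfc rising from 15.3 to 18.8 CPM to between 47.6 and 52 CPM (1.53 ± 0.09). Vegfa and Vegfb (0.84 ± 0.10) rose and the lymphatic growth factor Vegfc fell (-3.75 ± 0.38). Matrix genes and proteases had 16 of 33 members higher and 10 lower (13 and 10 with library totals alone). Fibronectin Fn1 went from 1.42, 1.39 and 0.838 CPM to 33.2, 36.7 and 42.4 CPM (4.93 ± 0.22) and versican Vcan from 8.22, 6.44 and 6.16 CPM to 69.2, 56.5 and 54.1 CPM (3.11 ± 0.13). Of 5 tested coagulation factor genes of this list, F5, F7, F10 and F13a1 rose and tissue factor F3 was not called (0.92 ± 0.71). F5 went from 0.2, 0.631 and 0.159 CPM to 39.2, 39.6 and 38 CPM (6.82 ± 0.23), and F7 rose by 2.90 ± 0.16. The metalloproteinases Mmp8 (2.04 ± 0.10), Mmp19 (1.27 ± 0.06) and Mmp12 (1.30) rose and Mmp13 (-1.15) and Adam8 (-1.41) fell, as did the collagen chains Col4a1 (-0.99) and Col4a2 (-1.37).

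Genes of MHC class II presentation were mostly lower, with 8 of 14 members lower, 1 higher and a median of -0.86. The transactivator Ciita, on which class II transcription depends, went from 27.5, 27 and 22.5 CPM to 4.52, 4.51 and 5.35 CPM (-2.42 ± 0.19). H2-Ab1 went from 122.8, 121.6 and 104.3 CPM to 27.9, 26.3 and 25.5 CPM (-2.13 ± 0.09), and H2-Eb1 (-2.10 ± 0.11), H2-Aa (-1.92 ± 0.12) and the invariant chain Cd74 (-1.44 ± 0.08) followed. The class II DNA-binding genes Rfx5, Rfxap and Rfxank were not called, at 0.05, -0.17 and 0.00, and the thiol reductase Ifi30 rose (0.74 ± 0.10). Class I genes had 3 of 18 higher and 3 lower (1 and 6 with library totals alone, and 1 to 2 lower without 1 KO library), and their sequences are similar enough that single members are uncertain.

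Checkpoint and costimulatory genes had 13 of 24 higher and 8 lower (9 and 9 with library totals alone). Cd274, which encodes the T cell inhibitory ligand PD-L1, went from 35, 32.7 and 37.1 CPM to 85.6, 86.4 and 88 CPM (1.31 ± 0.06). Havcr2, which encodes TIM-3, fell from 28.4 to 30.5 CPM to between 10 and 11.3 CPM (-1.43 ± 0.09), and the ectonucleotidase Entpd1 by 1.09 ± 0.08 on the log2 scale. Arginase Arg2 rose (1.66 ± 0.15), Cd86 fell (-0.85 ± 0.15) and Cd276 fell (-1.97 ± 0.18).

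Interferon response genes were mostly lower, 33 of 49 with 4 higher and a median of -0.54. Irf7, the amplifier of type I interferon, was at 192.6, 199.8 and 159.6 CPM in control and 99.2, 80.7 and 67.7 CPM in CM (-1.16 ± 0.14). Ifit3 went from 174, 163.3 and 136.2 CPM to 45.4, 41 and 31.7 CPM (-2.01 ± 0.24), a value uncertain between it and its copy Ifit3b (-2.41 ± 0.38). In both genes the groups did not overlap, although the third library of each medium was the lowest. Oas3 (-0.93 ± 0.12) and Isg15 (-1.07 ± 0.28) fell as well. Gbp7 was an exception, rising from 59.6 to 61.5 CPM to between 143.4 and 152.2 CPM (1.28 ± 0.06), and Ifi27l2a rose by 1.23.

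Feedback and early targets of NF-kB had 7 of 27 higher and 11 lower (5 and 16 with library totals alone). Nfkb1 fell (-0.52 ± 0.05), Cd83 fell (-1.67 ± 0.13), and Ier3 (1.49 ± 0.09) and superoxide dismutase Sod2 (1.00 ± 0.06) rose. Immediate early genes, which growth factors and stress induce within minutes, had 17 of 33 lower and 8 higher, with a median of -0.50. Fos went from 24.6, 21.7 and 25.9 CPM to 2.18, 2.19 and 2.77 CPM, and the orphan receptor Nr4a1 from 5.97, 6.35 and 5.41 CPM to 0.837, 0.574 and 1.03 CPM (-2.84 ± 0.20). Egr1 (-1.98 ± 0.46), Fosb (-2.36) and Dusp1 (-1.52 ± 0.14) fell with them, while Klf4 rose from 12.1 to 14 CPM to between 61.9 and 75 CPM (2.44 ± 0.11) and Jun rose by 0.78 ± 0.18. The AP-1 partners Fos and Jun therefore moved in opposite directions.

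Receptors for microbial and cellular ligands changed member by member. Of 28 pattern receptors 7 rose and 8 fell (7 and 14 with library totals alone): the lipopolysaccharide receptor Tlr4 went from 135.7, 130.5 and 126.6 CPM to 295.6, 295.5 and 280.8 CPM (1.15 ± 0.06), while the endosomal receptors Tlr7 (-0.61 ± 0.10), Tlr8 (-0.57 ± 0.08) and Tlr9 (-1.10 ± 0.14) fell. Scavenger, engulfment and complement genes had 12 of 27 higher and 4 lower (11 and 7 with library totals alone), and among those that rose were Itgam, from 1139, 1172 and 1115 CPM to 3015, 3088 and 3185 CPM (1.44 ± 0.05), properdin Cfp (1.32 ± 0.07) and complement C4b (3.60 ± 0.23). Of 7 Fc receptor genes 5 rose and 1 fell. The inhibitory Fcgr2b rose most, from 78.3, 74.8 and 83.6 CPM to 364.8, 373.7 and 396.3 CPM (2.26 ± 0.08), ahead of the activating Fcgr4 (1.14 ± 0.07) and Fcgr3 (0.84 ± 0.08). Integrins and adhesion genes had 10 of 27 higher and 11 lower. Itgax rose (1.65 ± 0.15) with Itgam, and Itga4 (-0.91 ± 0.06) and Itga9 (-2.98 ± 0.24) fell with Itgal.

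Genes typical of resident macrophages and microglia fell in 16 of 27 members and rose in 5, with a median of -0.35. Beside Olfml3, Cx3cr1, Gpr34, Hpgd, Tle1 and Adgre1, they included Folr2 (-0.85 ± 0.10) and Trem2 (-0.48 ± 0.11). Mrc1 was among those that rose. At 2-fold or more, 3 members rose and 6 fell, and the highest log2 change in the list was 4.08. Genes of the monocyte state split, with 8 of 22 higher and 5 lower: Vcan, Fn1, Hp and Ccr2 rose and Ace (-2.55 ± 0.36), Ms4a4c (-2.12 ± 0.17), Ms4a6c (-1.35 ± 0.11) and Nr4a1 fell, and the classical monocyte antigen Ly6c2 was not called (0.40).

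Prostanoid and leukotriene genes had 12 of 22 higher and 4 lower. Cyclooxygenase Ptgs1 went from 124.4, 123.5 and 118.1 CPM to 292.4, 289.3 and 304.5 CPM (1.28 ± 0.09) and leukotriene synthase Ltc4s from 15.4 to 16.2 CPM to between 67.6 and 71.8 CPM (2.14 ± 0.13). Hpgd and the lipoxygenase Alox5 (-0.87) fell, as did the prostaglandin receptor Ptger3 (-2.94 ± 0.21). The list of arginine, polyamine and NAD genes had 9 of 23 higher and 5 lower (7 and 8 with library totals alone). After Arg1 and Cd38 came Bst1, the second NAD-consuming ectoenzyme, from 22.2, 21.2 and 21.5 CPM to 172.7, 165 and 172.5 CPM (2.97 ± 0.09), and the arginine transporter Slc7a2 (1.30 ± 0.12). Nadk (-0.58 ± 0.05) and the polyamine acetylase Sat1 (-0.53 ± 0.05) fell.

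Among 29 survival and apoptosis genes 9 rose and 9 fell (9 and 12 with library totals alone), and the necroptosis pair Mlkl (1.37 ± 0.07) and Ripk3 (1.08 ± 0.08) rose while the BH3-only gene Bmf fell (-1.25 ± 0.11). Lysosomal genes had 15 of 36 higher and 9 lower, so the gains of Psap, Ctsd and Ctsl were not shared by Sgsh (-0.91 ± 0.07) or Ctsh (-0.53). Antioxidant genes had 5 of 19 higher and 6 lower. Mitochondrial Sod2 rose, whereas cytosolic Sod1 went from 372.2, 388.5 and 392.9 CPM to 167.6, 182 and 154.8 CPM (-1.19 ± 0.10) and catalase Cat fell (-0.65 ± 0.05). Iron genes had 7 of 17 lower and 1 higher (8 and 0 with library totals alone), but leaving out any 1 KO library left 3 or 4 lower. Transferrin Trf fell (-0.96 ± 0.07), as did Lcn2, at 41 counts in control and 3 in CM. The proteasome had 10 of 30 higher and 1 lower, all by 0.33 or less in size (4 and 1 with library totals alone).

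Of 44 lineage transcription factors 15 rose and 15 fell. Rbpj, the DNA-binding partner of Notch, went from 123.5, 118.6 and 116.5 CPM to 442.9, 444.6 and 418 CPM (1.86 ± 0.07). The corepressor Tle3 went from 97.6 to 99.2 CPM to between 227.8 and 238.4 CPM (1.26 ± 0.05), the reverse of its relative Tle1. Nfil3 (1.77 ± 0.13) and Cebpb (1.47 ± 0.28) rose, and Ets1 (-2.82 ± 0.17), Bcl6 (-1.67 ± 0.12) and Prdm1 (-1.53) fell. The macrophage master regulator Spi1, at 0.02, and Irf8, at -0.03, were not called. Polycomb and histone methylation genes had 4 of 36 higher and 10 lower (3 and 17 with library totals alone, and 6 to 10 lower without 1 KO library). Beside Ezh2, the accessory subunit Phf19 rose from 4.13, 4.02 and 3.60 CPM to 9.59, 7.85 and 12.1 CPM (1.33 ± 0.16) and Cbx7 of the partner complex fell (-0.93 ± 0.08). Ezh1 (-0.06), Suz12 (-0.07) and Eed (-0.17) were not called. Of 36 developmental factors known as Polycomb targets, only 10 passed the filter on low counts in these libraries, and 2 rose and 2 fell (1 and 2 with library totals alone), among them Igf2bp2 (2.12 ± 0.08) and Sox4 (-1.25 ± 0.10).

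Exon usage, the share of a gene's counts that falls on each exon, changed in 94 of 74933 tested exons (0.125%), in 82 genes. At 2-fold or more, 11 exons of 7 genes changed. Of these 11, 5 were in Plppr3, which overlaps another gene and is described below. Leaving out 1 KO library gave 22 calls (without control library 1) to 166 (without CM library 2), so the number of calls rests on single libraries. Of the 94, 83 lost share in CM and 11 gained, the 5 Plppr3 exons among the latter. In Dgkz, a diacylglycerol kinase gene, the 751-base exon at chr2:91945174-91945924 (GRCm38, minus strand), which is partly coding and belongs to 1 of the 3 annotated transcripts, held 1.79, 1.69 and 1.78% of the gene's matched exon counts in control and 0.43, 0.301 and 0.551% in CM (log2 change of share -1.39, adjusted p = 1.2e-18). The groups were far apart, and all 8 alternative fits called the exon. In Rtn4, a membrane-shaping protein gene, the 320-base first exon of 1 of 6 transcripts (chr11:29718563-29718882, plus strand) gained share, from 0.09, 0.0194 and 0.0563% to 0.382, 0.275 and 0.189% (1.58), a small part of the gene's counts in either medium. Vma21 (-1.61, adjusted p = 0.000673) and Fam193a (-1.23, adjusted p = 0.00476) each lost share in 1 exon. The 8-base exon of Hnrnpm (-1.69, adjusted p = 0.000577) held 1.75 and 1.63% in control libraries 1 and 3 but 0.331% in library 2 and between 0.191 and 0.284% in CM, and 1 of its 8 alternative fits did not call it (adjusted p = 0.136). Fam193a was not called in 2 of its 6 alternative fits (highest adjusted p = 0.113).

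Plppr3 had 5 exons with a larger share in CM, up to 3.68 for the coding exon at chr10:79866835-79867030. This gene overlaps the end of Ptbp1 on the opposite strand. Over its 5 matched exons outside Ptbp1 it had 20, 19 and 12 counts in control and 449, 733 and 931 in CM, or 0.364, 0.333 and 0.272 CPM and 11.4, 15.6 and 15.5 CPM, a 43.8-fold ratio of means. Over the 2 exons inside the overlap the ratio was 1.56, at 18.6 to 20.8 and 29.1 to 32.1 CPM. The whole-gene value for Plppr3 (1.62 ± 0.15) pools both sets of exons. The strand setting of the counting is not given in the sources used here. Whether reads of Ptbp1 were counted in the overlap was not tested. No tested exon of Pkm (7 tested), Fn1 (6), Cd44 (5), Ptprc (20) or Vegfa (4) was called. Exons of equal length within a gene, and exons that overlap another exon of their gene, were left out. A switch between such exons could not be seen.

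**Figure D5:**
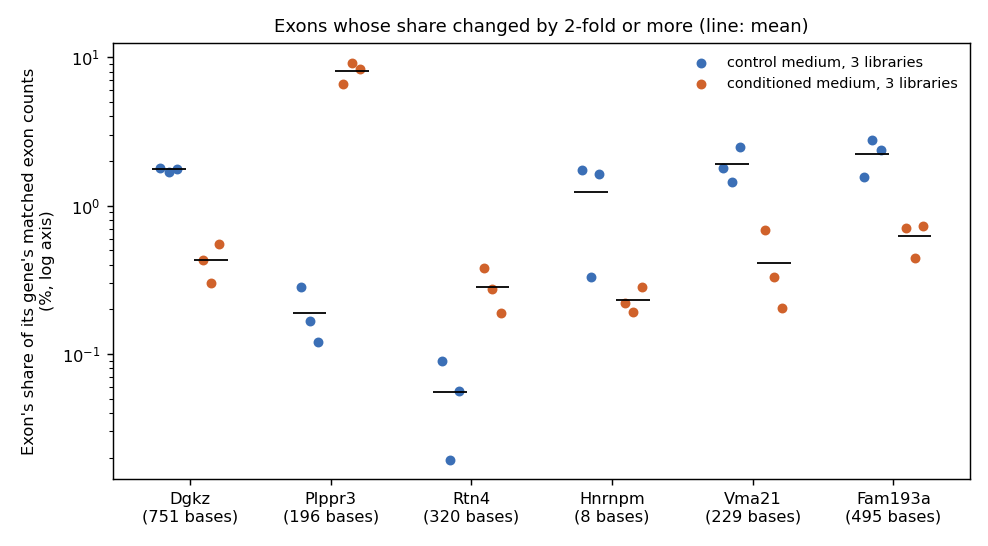
Points give the share (%, log axis) of a gene's matched exon counts that fell on 1 exon in each KO library, and lines the means, for the 6 genes named by the rule. Dgkz, Vma21 and Fam193a lie lower in CM (orange) and Plppr3 and Rtn4 higher, while 1 of the control libraries of Hnrnpm lies close to the CM libraries.

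Markers of other cell types were summed in each library. Hepatocyte and hepatoma markers totalled 5.81 to 7.45 CPM over the 6 libraries, and of 17 listed only 3 passed the filter. Afp was at 2.16 to 3.03 CPM in control and 1.85 to 2.32 CPM in CM and was not called, and the call of Ambp (2.85 ± 0.90) was lost in 4 of the 6 fits that left out a KO library. Fibroblast markers totalled 1.34 to 1.72 CPM and B cell markers 1.4 to 2.5 CPM. T and NK cell markers totalled 1.11 to 1.97 CPM in control and 0.48 to 0.68 CPM in CM. Dendritic cell markers totalled 177.7 to 221.3 CPM in control and 160 to 174 CPM in CM. Of 10 tested, Cd209a and Batf3 (0.95) rose and Siglech and Flt3 fell, Flt3 from 44 counts in control to 0 in CM, and the call of Batf3 was lost in 3 of the 6 fits without 1 KO library.

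Markers of neutrophils and their granules moved in both directions, from a total of 107.7 to 115.9 CPM to 188.2 to 214.5 CPM. The receptor gene Csf3r made up most of the control total, at 83.4 to 91 CPM, and stood at 98 to 117.2 CPM in CM. Of 10 tested members, 4 rose and 3 fell (3 and 4 with library totals alone; 2 to 4 and 0 to 3 without 1 KO library). The members that rose were Mmp8, Csf3r (0.26 ± 0.09), Elane and Prtn3, the last at 2 counts in control and 467 in CM (ratio 249, 95% counting interval 68.4 to 2060), and overlapping Plppr3 at its start. The defining S100a9 (-3.01 ± 0.82), Ltf (-2.78 ± 0.83) and Lcn2 were called lower, all at low counts, and the Lcn2 groups overlapped. The calls of Csf3r, Elane and Ltf were each lost in 3 of the 6 fits without 1 KO library, and that of S100a9 in 1. Megakaryocyte and erythroid markers went from 30.5 to 36.9 CPM to 96.8 to 136.7 CPM, nearly all of it Pf4, while Gp1ba (-0.87 ± 0.14) and Epor (-2.93 ± 0.55) fell. Osteoclast markers went from 235 to 254 CPM to 291 to 295 CPM, with Acp5 (3.12 ± 0.14) and Ctsk (1.03 ± 0.13) higher and Dcstamp (-1.68 ± 0.28) lower. The core macrophage list totalled 35460 to 36262 CPM in control and 31797 to 32315 CPM in CM, with 3 of 20 members higher and 8 lower and Lyz2 (-0.11 ± 0.07) and Cd68 (0.07) not called. What part such cells have in the response was not tested.

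The response in KO was set against that of WT macrophages by the interaction of genotype and medium. The edgeR test called 0 genes in either direction, the lowest adjusted p was 0.11, and 1050 genes had an unadjusted p below 0.05. DESeq2 called 60 genes with a more positive and 24 with a more negative response in KO. With only WT libraries 1 and 2, the edgeR test called 9 and 2. WT libraries 3 and 4 were deeper (80415111 to 85774436 counts) than WT libraries 1 and 2 (41312499 to 50042411), and with libraries 3 and 4 alone the test called 31 and 23. Arg1 rose in WT from a mean of 0.0362 to 68.2 CPM (KO 0.115 to 191.3 CPM), and the difference of the log2 responses, 0.11 ± 1.54, had a large SE, with control levels near 0. For Cd38 it was 2.43 ± 0.70 (adjusted p = 0.363). For each test, simulated counts of 13207 genes held 50 genes changed by 1.5-fold, 100 by 2-fold and 50 by 4-fold. The interaction test recovered 36, 81 and 100% of these, against 68, 90 and 100% for CM in KO. Weakly expressed genes were given no change in the simulation, so recovery at low counts was not tested and these shares need not hold there. Nor need they hold for the real libraries, where the interaction calls moved with the WT libraries used. At 1.5-fold, the simulated interaction test missed more differences than it found. Small differences between genotypes in a gene's response may therefore be missed here.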

How the data were processed

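RNA of bone marrow-derived macrophages was sequenced after 24 h in control or Hepa1-6 conditioned medium, with 3 libraries per medium in KO and 4 in WT. The libraries were made with a stranded mRNA kit, per the labels' protocols, and the submitters' processing notes name HISAT2 and mm10. The counter, the annotation and the strand setting are not given in the sources used here. The deposited table holds raw read counts of the authors per exon, with 427386 exon entries. Repeats within a gene made up 196941 entries and 48.6% of all counts, so sums per gene were taken over the 230445 distinct entries. Total counts per library ran from 40249866 to 85774436.

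The test was edgeR's (4.0.16, R 4.3.3) quasi-likelihood test on gene counts with TMM scaling, a mean for each of 4 groups over all 14 libraries, and edgeR's expression filter (minimum count 10, minimum total 15). Benjamini-Hochberg adjustment was over all 13311 tested genes, and a call is an adjusted p under 0.05. SEs were derived from the F statistic and are approximate. Exon usage was tested in the 6 KO libraries with edgeR, for exons with a mean count of 20 or more in genes with at least 3 of them. The exon table gives no coordinates, so exons were matched to GENCODE M21 (GRCm38) by gene and a length found once in the gene, and the share of an exon is of the gene's matched exon counts. Matched exons that overlapped another annotated exon of their own gene were left out. Counting intervals are exact at 95%, and a group at 0 counts was set to a floor of 3 counts over the group; both cover counting error only.

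Genes were named by a rule: the switched genes, the 12 largest changes each way, the 8 largest CPM gains and losses, up to 6 members with the smallest p in each of 58 lists, and fixed genes; other list members are named as examples chosen after their values were seen. Predicted, clone, microRNA, immunoglobulin and T cell receptor symbols were left out of this naming, except for the fixed genes. The comparison, the lists and the rule were chosen with earlier results of these data known. Alternatives were other scalings, filters, DESeq2 (1.42.0), limma (3.58.1) voom, a replicate block, fewer WT libraries and leaving out each library. Same-numbered KO libraries did not deviate together (r of -0.002, -0.036 and 0.051), so the numbers were not treated as pairs. The tests were checked on simulated counts. Results for some genes are not reported here.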

Additional observations from a re-analysis of the deposited data

How the results depend on the processing

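For CM in KO, all alternatives kept the counts of genes higher and lower within 1.5 times of 2659 and 2418, and this covers the scalings, filters, DESeq2, voom, subsets of WT libraries and each left-out library. With only the KO libraries they were 3170 and 2893. With the replicate block they were 3434 and 3240, and without 1 KO library 2275 to 2393 and 2009 to 2081. Of the 324 genes named by the rule 301 were called, and 36 of these lost the call under some alternative. Among the named genes that were not called, 10 gained a call under some alternative. Noc4l changed sign with the most-counted exon (-0.04); the cause was not tested. The interaction counts (0 and 0) were 60 and 24 with DESeq2, 19 and 8 with voom, and 99 and 106 with the replicate block. With WT libraries 1 and 2 they were 9 and 2, and with WT libraries 3 and 4 they were 31 and 23. A term that set WT libraries 3 and 4 apart gave 87 and 77. This term was chosen after seeing the data, and the labels name no batch. Leaving out 1 library gave 0 to 2 with a more positive response, the 2 without WT control replicate 2, and 0 to 1 with a more negative one, the 1 without KO CM replicate 2. The causes were not tested. Exon usage calls ranged from 22, without KO control replicate 1, to 166, without KO CM replicate 2. They were 24, 39 and 47 without KO control replicate 2, KO control replicate 3 and KO CM replicate 3. The 2-fold calls ranged from 10 to 21, the 21 without KO CM replicate 2, and were 7 with a minimum mean count of 50. Calls at low counts are limited by depth.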
